A study of Populus sp. cv. 'Okanese' with 18 samples.

Results

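The evening complex genes of hybrid poplar are described here: 2 genes named LUX (Potri.001G243600 and Potri.009G035000), 2 named ELF3 (Potri.003G045000 and Potri.006G233800) and 1 named ELF4 (Potri.006G143800). They are the 5 genes, of 31033 in the table of counts, to which a plot of clock genes in the study gives these names. All 5 passed the filter on average expression that left 23700 genes for testing. RNA was sequenced from leaves of Populus × 'Okanese', grown from cuttings in a greenhouse with a 15 h photoperiod, 21 days after the water treatments began. Before the treatments the trees had grown well watered for 42 days, and the leaves taken had developed during the treatments. Soil was held at 30, 50 or 80 % of field capacity (SWCg, the gravimetric soil water content), with 80 % SWCg as the control. Leaves were cut in the early evening (EE, 16 h) and in the late morning (LM, 10 h), which gives the groups EE30, EE50, EE80, LM30, LM50 and LM80 with 3 libraries each (A, B and C). No label says whether every library stands for a separate tree, and p-values then measure only the spread between libraries, which may be technical.

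In Arabidopsis the evening complex is a repressor of transcription that forms around dusk. ELF3 is the scaffold, ELF4 is a small protein that binds ELF3 and promotes its activity, and LUX is a GARP-type transcription factor that brings the complex to DNA. Known targets there include the clock genes PRR9 and PRR7, LUX itself and the growth regulators PIF4 and PIF5, and plants that lack any subunit lose rhythms under constant conditions and grow long hypocotyls. The transcripts of its subunits are low in the morning and peak towards dusk. These roles are known from Arabidopsis and were not measured in poplar here. The EE leaves were cut at 16 h, before the 15 h photoperiod ended, and no later hour was sampled, so EE levels need not be peak levels.

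The total number of reads assigned to genes lay between 17348563 and 48110546 per library, with a median of 24020818. In the column headers all 9 EE libraries have a tag that ends in 008 and all 9 LM libraries one that ends in 007. What the tag marks is not stated, and its effect and that of the hour cannot be told apart. LM30 B, LM80 A and EE30 C lay at the ends of the second principal component, with scores of 35.8, −38.7 and 37.4, and results that rest on them are given with and without them. EE80 A came next, at −34.9, and leaving it out called 0 of the 5 genes in every contrast of soil water. Fewer of all genes were called then, 62 of 23684 for EE30 against EE80 and 499 over both times. With EE80 A in the fit these were 460 and 1318 of 23700, so 0 of 5 without it says little. The labelled tissue was not checked against marker genes, since no gene descriptions were used here. In whole leaves a change in the share of a cell type and a change in RNA per cell cannot be told apart.

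In P. trichocarpa v4.1 coordinates, LUX Potri.001G243600 lies on chromosome 1 from 26128861 to 26132400 on the plus strand, with 1 exon block of 3540 bases. LUX Potri.009G035000 lies on chromosome 9 from 4518234 to 4521566 on the plus strand, with 3 exon blocks of 2595 bases in all. ELF3 Potri.003G045000 spans 5126596 to 5134550 on the plus strand of chromosome 3 and has 4 exon blocks with 3992 bases. ELF3 Potri.006G233800 spans 23628963 to 23635007 on the minus strand of chromosome 6, with 4 exon blocks and 3002 bases. ELF4 Potri.006G143800 is on the plus strand of the same chromosome at 12134695 to 12136780, and its 2 exon blocks hold 980 bases. The span of none of the 5 overlaps another annotated gene. Reads that align equally well to both genes of a pair are left out by the counter's default, so the levels of the LUX and ELF3 pairs may be understated by an amount that was not measured.

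All 5 evening complex genes were higher in EE than in LM at every water level. The LUX genes had the largest differences, ELF3 Potri.006G233800 and ELF4 intermediate ones, and ELF3 Potri.003G045000 the smallest. Over the mean of the 3 water levels the differences were about 123-fold and 21.6-fold for LUX, 6.93-fold and 1.91-fold for ELF3, and 2.94-fold for ELF4. No contrast of soil water within a time of day called any of the 5 by edgeR, where 0.0 to 1.94 % of all genes tested were called. With so few genes called, 0 of 5 does not set these genes apart.

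LUX Potri.001G243600 was nearly silent in the late morning. It had 19.8, 13.6 and 17.8 CPM (a count scaled to the library's total, as corrected by TMM) in EE30, 23.8, 11.9 and 14.7 CPM in EE50, and 19.5, 14.8 and 19.7 CPM in EE80. The LM libraries held 5, 1 and 0 reads in LM30, 0, 4 and 1 in LM50, and 5, 2 and 1 in LM80, at most 0.387 CPM. A count of 0 allows a level of up to 0.278 CPM in LM30 C and 0.245 CPM in LM50 A, taking 3 reads as the limit. Every EE library was thus far above every LM library, and within each time the water groups overlapped. Since the LM level rests on 19 reads in 9 libraries, against 2970 reads in the 9 EE libraries, its fold is best read with its counting error. The ratio of pooled CPM was 104 at 30 % SWCg (exact 95 % interval 47.6 to 284), 156 at 50 % SWCg (66.5 to 481) and 138 at 80 % SWCg (69.6 to 320), intervals that cover counting error only. The fitted log2 fold changes of EE against LM were 6.64 ± 0.49, 7.22 ± 0.49 and 6.99 ± 0.46 (± SE) at 30, 50 and 80 % SWCg. Single LM libraries moved these values: without LM30 A the value at 30 % SWCg was 8.43, without LM50 B that at 50 % SWCg was 8.51, and without LM80 A that at 80 % SWCg was 7.71. The lowest values with 1 library left out were 6.15, 6.80 and 6.57 at 30, 50 and 80 % SWCg, and the call held each time.

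LUX Potri.009G035000 was the more abundant LUX gene in every library, also per kb of exon. It reached 113, 103 and 83.4 CPM in EE30, 107, 82.1 and 77.1 CPM in EE50, and 98.3, 98.6 and 94.5 CPM in EE80. The LM libraries had 5.49, 3.13 and 4.36 CPM in LM30, 4.33, 4.45 and 4.72 CPM in LM50, and 4.96, 3.50 and 4.79 CPM in LM80. The lowest EE library was thus far above the highest LM library, and no order of the water groups held across libraries. Its log2 fold changes of EE against LM were 4.52 ± 0.19, 4.30 ± 0.18 and 4.48 ± 0.18 (± SE) at 30, 50 and 80 % SWCg.

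ELF3 Potri.006G233800, 1 of the 2 scaffold genes, had 60.9, 66.4 and 51.9 CPM in EE30, 54.9, 66.9 and 56.6 CPM in EE50, and 50.4, 71.1 and 47.6 CPM in EE80. In the late morning it had 12.8, 8.85 and 9.28 CPM in LM30, 8.003, 7.77 and 7.74 CPM in LM50, and 7.44, 7.29 and 7.45 CPM in LM80. The EE groups overlapped among themselves, with EE80 B the highest library. In LM the 3 groups did not overlap, in the order LM30, LM50 and LM80, though no contrast among them was called. LM30 lay above both others for 4.42 % of all genes tested, and LM50 above LM80 for 3.07 %. Its log2 fold changes of EE against LM were 2.53 ± 0.16, 2.92 ± 0.16 and 2.92 ± 0.16 (± SE) at 30, 50 and 80 % SWCg.

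ELF3 Potri.003G045000 had the smallest daily difference of the 5. It had 30.7, 31.5 and 25.2 CPM in EE30, 24.3, 32.3 and 29.7 CPM in EE50, and 27.6, 27.0 and 26.5 CPM in EE80. The LM libraries had 14.8, 22.4 and 14.3 CPM in LM30, 15.4, 14.5 and 14.4 CPM in LM50, and 15.6, 11.4 and 11.3 CPM in LM80. LM30 B, at 22.4 CPM, came closest to the EE libraries, of which EE50 A was the lowest at 24.3 CPM. The log2 fold changes of EE against LM were 0.76 ± 0.16 (edgeR adjusted p = 0.000759), 0.96 ± 0.16 (edgeR adjusted p = 7.95e-05) and 1.07 ± 0.16 (edgeR adjusted p = 2.88e-05), ± SE, at 30, 50 and 80 % SWCg.

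ELF4 Potri.006G143800 had 41.8, 45.1 and 33.5 CPM in EE30, 34.8, 46.1 and 40.4 CPM in EE50, and 36.1, 42.8 and 39.5 CPM in EE80. The LM libraries had 13.4, 20.8 and 11.4 CPM in LM30, 14.9, 13.1 and 13.9 CPM in LM50, and 14.6, 10.3 and 10.5 CPM in LM80. As for ELF3 Potri.003G045000, LM30 B was the highest LM library, and the water groups overlapped at both times. The log2 fold changes of EE against LM were 1.39 ± 0.19, 1.54 ± 0.19 and 1.73 ± 0.19 (± SE) at 30, 50 and 80 % SWCg.

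**Figure D1:**
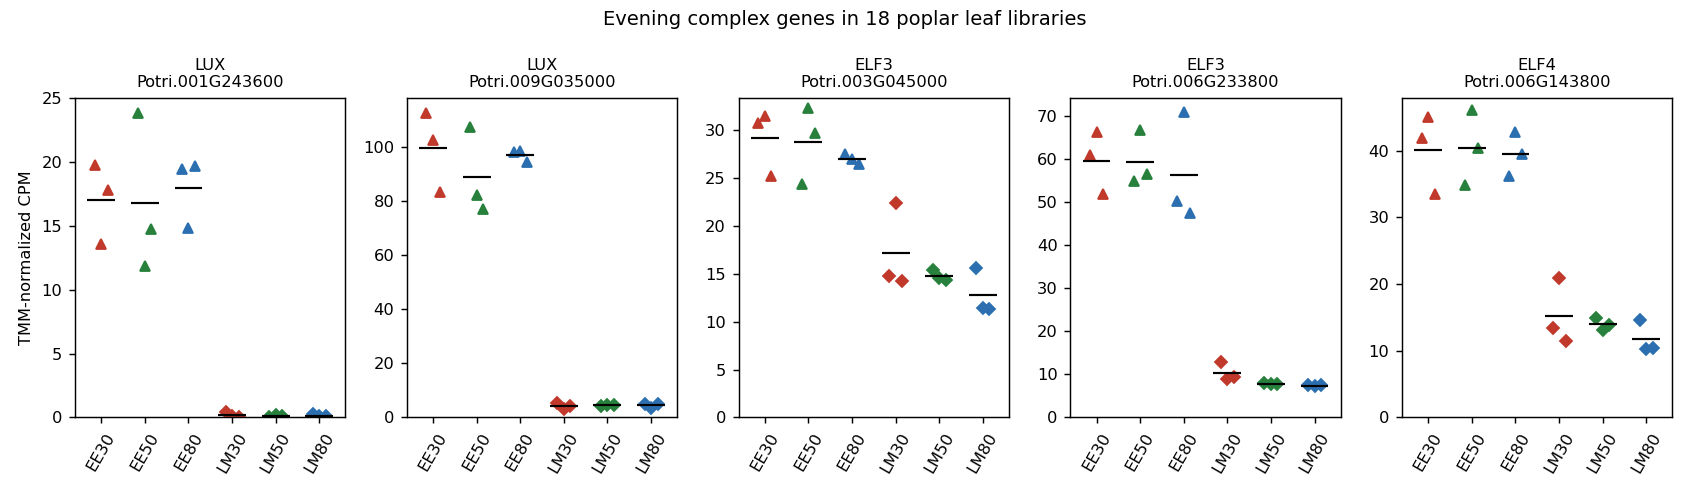
CPM (TMM) of the 5 evening complex genes in each library, by group, with the group mean as a line. In every panel the 9 early evening libraries lie above the 9 late morning libraries, and LUX Potri.001G243600 stays at or under 0.387 CPM in the late morning.

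By edgeR's quasi-likelihood test, 5 of 5 genes were called higher in EE at 30 % SWCg, where 28.3 % of all genes tested were, at 50 % SWCg (28.8 % of all genes) and at 80 % SWCg (27.3 % of all genes). The adjusted p-values lay between 7.47e-12 and 0.000759. The 3 EE libraries were all above the 3 LM libraries of the same water level for 5 of 5 genes, as they were for 30.9, 34.0 and 30.6 % of all genes at 30, 50 and 80 % SWCg. The median log2 fold change of the 5 was 2.53, 2.92 and 2.92, beside medians of 0.02, 0.05 and 0.03 over all genes tested. Among 23700 genes ordered by the mean log2 fold change over water levels, the LUX genes ranked 7 and 70, the ELF3 genes 368 and 2798, and ELF4 ranked 1342. DESeq2 and every other setting tried called the same 5 genes at each water level.

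**Figure D2:**
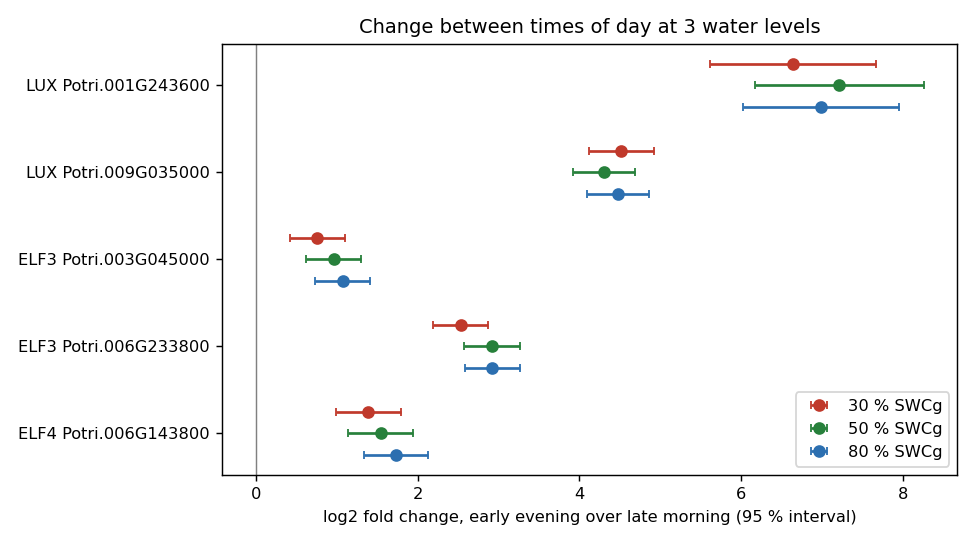
Log2 fold change of EE against LM with its 95 % confidence interval for each evening complex gene at 30, 50 and 80 % SWCg, from the edgeR fit. All 15 intervals lie above 0, with bounds between 0.42 (ELF3 Potri.003G045000 at 30 % SWCg) and 8.26 (LUX Potri.001G243600 at 50 % SWCg).

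Whether the daily difference depended on soil water was tested as the difference of 2 differences. Comparing EE30 minus LM30 with EE80 minus LM80, edgeR called 0 of 5 genes (0.0 % of all genes tested). DESeq2 also called 0 of 5 (32 of 23700 genes). In edgeR 0 of 5 had an unadjusted p below 0.05 (8.61 % of all genes). The estimates on the log2 scale were −0.39 for ELF3 Potri.006G233800 (95 % interval −0.86 to 0.08, edgeR adjusted p = 0.640), −0.31 for ELF3 Potri.003G045000 (−0.79 to 0.17) and −0.34 for ELF4 (−0.90 to 0.21). For LUX Potri.009G035000 the estimate was 0.04 (−0.50 to 0.58). LUX Potri.001G243600 gave −0.35 with an interval of −2.66 to 1.95, which reflects its LM counts of 0 to 5 reads. For 50 % against 80 % SWCg the 5 estimates lay between −0.19 and 0.23, and 0 of 5 were called (0.0 % of all genes), 0 of them at an unadjusted p below 0.05 (4.43 % of all genes).

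The 2 genes of each pair differed in how far they moved between the times. The ratio of the 2 genes within a library does not depend on the library's size, so it was compared by an exact two-sided permutation test on log2 CPM with a prior count of 2. The log2 ratio of ELF3 Potri.006G233800 to ELF3 Potri.003G045000 was 1.04 ± 0.17 in EE and −0.80 ± 0.32 in LM (SD, n = 9 libraries each), a difference of 1.83 (exact p = 4.11e-05, the smallest the test can give, adjusted p = 0.000247 over 12 comparisons of both pairs). In CPM, Potri.006G233800 was the higher of the 2 in 9 of 9 EE libraries and the lower in 9 of 9 LM libraries. Per kb of exon it was the lower in 8 of 9 LM libraries, with LM30 A the exception. The log2 ratio of LUX Potri.001G243600 to LUX Potri.009G035000 was −2.47 ± 0.27 in EE and −4.38 ± 0.63 in LM (SD, n = 9 each), a difference of 1.90 with the same exact p and adjusted p. This LUX difference depends on the prior count, since LM counts are near 0, and was 2.82 with a prior count of 0.5.

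Within 1 water level the test compares 3 with 3 libraries and cannot give an exact p under 0.1. The ELF3 ratio differed between EE and LM by 1.75 at 30 %, 1.95 at 50 % and 1.80 at 80 % SWCg, and the LUX ratio by 1.73, 2.18 and 1.80, with no overlap of libraries in any of these 6 comparisons. Between 30 % and 80 % SWCg the mean ELF3 ratio differed by 0.00 in EE and 0.05 in LM, and the mean LUX ratio by −0.11 in EE and −0.05 in LM. None of these 4 signs was stable: the ELF3 value turned without EE30 A or EE80 B in EE and without LM30 A, LM30 C or LM80 A in LM, and the LUX value without EE30 B in EE and without LM30 C or LM80 A in LM. Leaving out single libraries gave values from −0.44 to 0.46.

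Levels of different genes were set side by side as CPM per kb of exon. In EE the order was ELF4, LUX Potri.009G035000, ELF3 Potri.006G233800, ELF3 Potri.003G045000 and LUX Potri.001G243600 at every water level. At 80 % SWCg these levels in EE were 40.3, 37.4, 18.8, 6.77 and 5.09 CPM per kb. ELF4 and LUX Potri.009G035000 overlapped in all 3 EE groups, and the last 2 genes overlapped in EE50. In LM the order was ELF4, ELF3 Potri.003G045000, ELF3 Potri.006G233800, LUX Potri.009G035000 and LUX Potri.001G243600, with 12.04, 3.20, 2.46, 1.70 and 0.0374 CPM per kb at 80 % SWCg. The 2 ELF3 genes overlapped in LM30 only. Thus the pair of ELF3 genes changed places between the times, LUX Potri.009G035000 lay above both ELF3 genes in EE and below both in LM, and ELF4 was first at both.

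Summed over each pair, LUX reached 43.2, 39.0 and 42.5 CPM per kb in EE30, EE50 and EE80, against 1.71, 1.76 and 1.74 CPM per kb in LM30, LM50 and LM80. The ELF3 sum was 27.2, 27.0 and 25.5 CPM per kb in the EE groups and 7.73, 6.31 and 5.66 CPM per kb in the LM groups. ELF4 had 41.0, 41.3 and 40.3 CPM per kb in EE and 15.5, 14.2 and 12.04 CPM per kb in LM. In EE the 3 subunits thus lay between 25.5 and 43.2 CPM per kb, and in LM the LUX sum was the lowest of the 3 in every group. Potri.001G243600 made up 11.3, 11.95 and 11.96 % of the LUX sum in EE30, EE50 and EE80, and 2.24, 1.39 and 2.08 % in LM30, LM50 and LM80. Potri.003G045000 made up 26.9, 26.6 and 27.0 % of the ELF3 sum in the EE groups, and 55.3, 58.6 and 56.2 % in the LM groups.

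**Figure D3:**
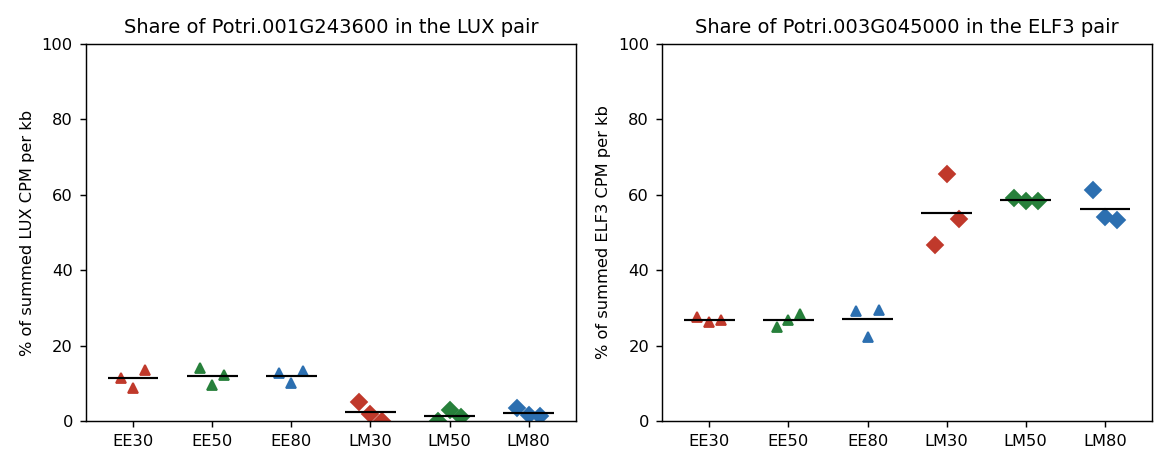
Share of LUX Potri.001G243600 in the summed CPM per kb of the LUX pair (left) and of ELF3 Potri.003G045000 in that of the ELF3 pair (right), in percent, 1 point per library with the group mean as a line. The group means of the ELF3 share are 26.6 to 27.0 % in EE against 55.3 to 58.6 % in LM, and those of the LUX share 11.3 to 11.96 % in EE against 1.39 to 2.24 % in LM.

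No contrast of soil water passed the threshold for any of the 5 genes in the edgeR fit or in DESeq2. In the early evening, EE30 against EE80 gave log2 fold changes of −0.08 (95 % interval −0.62 to 0.45) and 0.04 (−0.27 to 0.34) for LUX Potri.001G243600 and Potri.009G035000. They were 0.11 (−0.22 to 0.43) and 0.09 (−0.21 to 0.39) for ELF3 Potri.003G045000 and Potri.006G233800, and 0.02 (−0.35 to 0.40) for ELF4. Here edgeR called 0 of 5 genes, where it called 1.94 % of all genes tested. DESeq2 also called 0 of 5, where it called 1026 of all 23700 genes. In edgeR 0 of 5 had an unadjusted p below 0.05, where 17.6 % of all genes had such a p. EE50 against EE80 gave values between −0.13 and 0.09 with 0 of 5 called (0.0127 % of all genes), 0 of them at an unadjusted p below 0.05 (6.38 % of all genes). EE30 against EE50 gave −0.01 to 0.16 with 0 of 5 called (0.0169 % of all genes), again 0 at an unadjusted p below 0.05 (5.98 % of all genes). For the 4 genes other than LUX Potri.001G243600, the intervals of EE30 against EE80 thus reached from −0.35 to 0.43 at most.

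In the late morning both ELF3 genes had their highest mean in LM30. ELF3 Potri.006G233800 averaged 10.3 ± 2.14 CPM in LM30 and 7.39 ± 0.0869 CPM in LM80 (SD, n = 3 each), a log2 fold change of 0.48 ± 0.17 (SE, 95 % interval 0.12 to 0.85, edgeR unadjusted p = 0.0122, adjusted p = 0.199). Every LM30 library was above every LM50 and LM80 library, as for 4.42 % of all genes tested, and LM30 A was the highest of the 3. Without LM30 A the log2 fold change was 0.29, and the highest value with 1 library left out was 0.58. LM50 averaged 7.84 ± 0.144 CPM, and LM30 against LM50 gave 0.40 (edgeR adjusted p = 0.402). LM50 against LM80 gave 0.08 (−0.28 to 0.45), although each LM50 library lay above each LM80 library, as for 3.07 % of all genes.

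ELF3 Potri.003G045000 averaged 17.2 ± 4.55 CPM in LM30 and 12.8 ± 2.42 CPM in LM80 (SD, n = 3 each), with a log2 fold change of 0.42 (95 % interval 0.07 to 0.77, edgeR unadjusted p = 0.0216, adjusted p = 0.243). Here LM30 B was the high library, and without it the value was 0.17. In LM80 the high library was A, at 15.6 CPM, and the highest value with 1 library left out was 0.59. ELF4 behaved likewise, with 15.2 ± 4.97 CPM in LM30 and 11.8 ± 2.46 CPM in LM80. Its log2 fold change was 0.37 (−0.05 to 0.78, edgeR adjusted p = 0.394), and 0.06 without LM30 B. LM80 A was again the high LM80 library, at 14.6 CPM, and the highest value with 1 library left out was 0.56. LUX Potri.009G035000 had a log2 fold change of 0.00 (−0.45 to 0.44). For LUX Potri.001G243600 the interval of LM30 against LM80 was −1.95 to 2.49, with 6 reads in the 3 LM30 libraries and 8 in the 3 LM80 libraries.

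For LM30 against LM80, edgeR called 0 of the 5 genes (0.0675 % of all genes tested). DESeq2 also called 0 of 5 (538 of 23700 genes). In edgeR 2 of 5 had an unadjusted p below 0.05, as had 15.1 % of all genes. The median log2 fold change of the 5 genes was 0.37, the value of ELF4, and that of all genes was −0.01. Without LM30 B the value of ELF4 was 0.06. For LM50 against LM80, 0 of 5 were called (0.0 % of all genes) and 0 of 5 had an unadjusted p below 0.05 (1.97 % of all genes). For LM30 against LM50, 0 of 5 were called (0.0 % of all genes) and 1 of 5, ELF3 Potri.006G233800, had an unadjusted p below 0.05 (11.5 % of all genes). Averaged over both times, 30 % against 80 % SWCg gave 0.29 for ELF3 Potri.006G233800 (edgeR unadjusted p = 0.0202, adjusted p = 0.140) and 0.26 for ELF3 Potri.003G045000 (edgeR unadjusted p = 0.0322, adjusted p = 0.177). In this contrast 0 of 5 were called, 2 of 5 had an unadjusted p below 0.05, and the shares of all genes tested were 5.56 % and 22.2 %. ELF3 Potri.006G233800 passed the threshold in 2 other settings: with robust dispersion and a likelihood ratio test (0.31, edgeR adjusted p = 0.0477) and without EE80 B (0.38, edgeR adjusted p = 0.0237). Both settings also called more of all genes, 2334 of 23700 and 1592 of 23678, against 1318 of 23700 in the main fit.

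**Figure D4:**
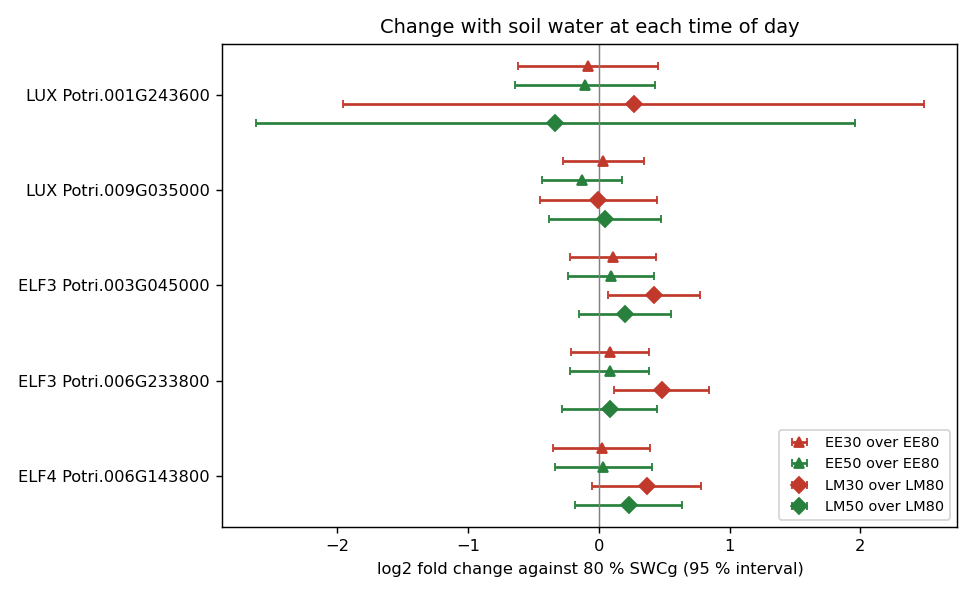
Log2 fold change of 30 and 50 % against 80 % SWCg with its 95 % confidence interval for each evening complex gene, in EE and in LM, from the edgeR fit. All EE intervals include 0, and in LM only the 30 % values of the 2 ELF3 genes (0.42 and 0.48) have intervals above 0, with adjusted p-values of 0.243 and 0.199.

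Within each time of day, the levels of the 5 genes were compared across the 9 libraries, over 16 pairs of genes in all, 10 in EE and 6 in LM, where LUX Potri.001G243600 has too few reads. ELF3 Potri.003G045000 and ELF4 went together at both times. How many other genes go with either of them as closely over the same libraries was not counted. In LM their log2 CPM correlated at Pearson r = 0.97 (exact permutation p = 8.54e-05, adjusted p = 0.00137, n = 9) and Spearman rho = 0.92 (exact permutation p = 0.00131, adjusted p = 0.021). The r was 0.88 without the 2 libraries farthest from the median of ELF3, 0.91 without LM30 B, 0.90 without LM30 B and LM80 A, and 0.98 for deviations from the group means. In EE the r was 0.85 (exact permutation p = 0.00541, adjusted p = 0.0433, n = 9) and rho 0.85 (exact permutation p = 0.00607, adjusted p = 0.0486). It was 0.71 without the 2 farthest libraries, 0.82 without EE30 C and 0.88 for deviations from the group means.

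The ratio of these genes differed between the times all the same. The log2 ratio of ELF4 to ELF3 Potri.003G045000 was 0.46, 0.49 and 0.54 in EE30, EE50 and EE80, and −0.19, −0.08 and −0.12 in LM30, LM50 and LM80 (means, n = 3 each). On this scale, which is not corrected for gene length, each of the EE libraries lay above 0 and each of the LM libraries below 0. None of the other 14 pairs passed an adjusted p of 0.05. The nearest to it were ELF3 Potri.006G233800 with ELF4 in EE (r = 0.76, exact permutation adjusted p = 0.0876, n = 9, 0.93 without the 2 farthest libraries) and LUX Potri.001G243600 with ELF4 in EE (r = −0.76, exact permutation adjusted p = 0.0876, n = 9). In LM, ELF3 Potri.006G233800 with ELF4 gave r = 0.19 (exact permutation adjusted p = 0.700, n = 9). This r was 0.89 without LM30 A and LM30 C, the 2 libraries farthest from the median of ELF3. For deviations from the group means it was −0.28, so its sign was not stable. Whether the 2 ELF3 genes differ in their relation to ELF4 was not tested. The 2 LUX genes gave r = 0.54 in EE (exact permutation adjusted p = 0.269, n = 9).

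**Figure D5:**
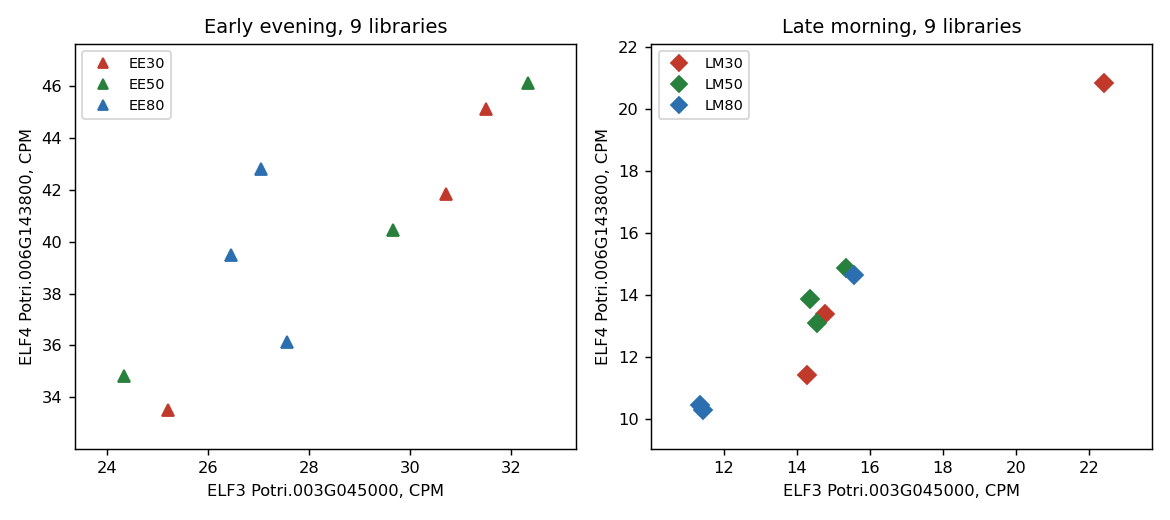
CPM of ELF4 Potri.006G143800 against CPM of ELF3 Potri.003G045000 in the 9 early evening and the 9 late morning libraries, 1 point per library, coloured by soil water. The points lie along a line at both times (r of log2 CPM 0.85 and 0.97), and the late morning point at the upper right is LM30 B, with 22.4 and 20.8 CPM.

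Over all groups, the fit gave LUX Potri.001G243600 the widest spread between libraries of the 5 members. Its biological coefficient of variation in the fit was 0.219, against 0.129 to 0.154 for the other 4 and a median of 0.109 over all genes tested. Its SD of CPM was 18.5, 37.2 and 15.2 % of the mean in EE30, EE50 and EE80. In EE80 the spread of ELF3 Potri.006G233800 was wider, at 22.8 % of the mean.

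Of the other clock genes that the study plotted, 11 named CCA1, PRR9, PRR7, PRR5, GI and ZTL were compared here, and the rest were not. They come from these same libraries and are not independent evidence of a direction. CCA1 is a morning repressor of the clock, the PRR genes encode repressors that act in turn through the day, and GI and ZTL act in the turnover of clock proteins. Between EE and LM, averaged over water levels, 7 of 11 were higher and 3 of 11 lower (37.1 and 33.0 % of all genes tested), with a median log2 fold change of 2.00. The 2 largest of the 11 were ZTL Potri.008G135200 at 8.97 and ZTL Potri.010G105700 at 5.97 on the log2 scale. LUX Potri.001G243600, at 6.95, lay between these 2 ZTL genes. Of the genes that the complex represses in Arabidopsis, PRR9 Potri.014G106000 was lower in EE by a log2 fold change of −1.45 and PRR9 Potri.002G179800 did not pass the threshold (−0.11, edgeR adjusted p = 0.0690). PRR7 Potri.010G215200 and Potri.008G046200 were higher at 2.42 and 0.44. By edgeR, 0 of these 11 genes were called in any contrast of soil water, where 0.0 to 5.56 % of all genes tested were. An unadjusted p below 0.05 was found for 3 of 11 in LM30 against LM80 (15.1 % of all genes). The same held for 3 of 11 over both times (22.2 %), 2 of 11 in LM30 against LM50 (11.5 %) and 1 of 11 in EE50 against EE80 (6.38 %).

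The genes most like each member were found by the root-mean-square difference of centred log2 CPM over the 18 libraries. The nearest to LUX Potri.009G035000 was Potri.010G135100, at a difference of 0.247, with mean levels of 361 CPM in EE and 14.4 CPM in LM. The nearest to ELF3 Potri.006G233800 was Potri.004G072900, at 0.147, with 536 CPM in EE and 77.5 CPM in LM. For ELF3 Potri.003G045000, ELF4 and LUX Potri.001G243600 the smallest differences were 0.115, 0.134 and 0.505. No member was among the 3 genes nearest to another. Of all genes, LUX Potri.009G035000 ranked 37 in likeness to LUX Potri.001G243600, and ELF3 Potri.003G045000 ranked 439 in likeness to ELF4. In the other direction LUX Potri.001G243600 ranked 467 in likeness to LUX Potri.009G035000, and ELF4 ranked 1942 in likeness to ELF3 Potri.003G045000. A lower prior count of 0.5 left all 3 nearest genes the same for 4 members and 1 of 3 for LUX Potri.001G243600.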

How the data were processed

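RNA-seq libraries (NEBNext stranded, single-end 100 bp reads, Illumina HiSeq4000) were made from 18 leaf samples. The authors trimmed reads with Trimmomatic, mapped them with HISAT2 2.2.1 to P. trichocarpa v4.1, converted the alignments with SAMtools 1.3.1 and deposited raw counts per gene from featureCounts 2.0.1. The file header names no option, so by the tool's defaults strand was ignored and multi-mapping reads were left out. Strand was then not used to part overlapping genes.

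Groups came from the sample labels. Genes whose average log2 CPM lay between −2 and 9 were fitted in R 4.3.3 in 1 model of 6 groups with edgeR 4.0.16 (TMM, quasi-likelihood F test), with an adjusted p (Benjamini–Hochberg over 23700 genes) below 0.05 as the threshold. CPM uses TMM library sizes. Ratios and correlations were tested by exact two-sided permutation (Python 3.11.15, SciPy 1.17.1, pandas 2.3.3, matplotlib 3.10.9), with p-values adjusted over 12 and 16 comparisons. Log2 CPM for these had a prior count of 2.

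Alternatives were DESeq2 1.42.0, DESeq2 size factors within edgeR, robust dispersion tested by likelihood ratio, filterByExpr or no filter, a replicate block by letter, only the groups compared, a prior count of 0.5, and each library left out. A fit that left out EE30 C, LM30 B and LM80 A together was added after seeing the data.

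The members, gene lists and tests were chosen with earlier results of these data known. Named beside the 5 members were 2 of the 11 other clock genes compared, those with the largest mean change between times. Also named were the PRR9 and PRR7 genes, chosen after their values were seen. The first of the 3 genes nearest to each of 2 members was named too, since gene IDs came without names. Promoter and protein sequences, further clock genes and cell type markers were not analysed here.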

Additional observations from a re-analysis of the deposited data

How the results depend on the processing

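The differences between EE and LM kept their direction and their call for all 5 genes under all 393 alternative values. For soil water and its interaction with time, 858 values kept direction and side of the threshold, 48 turned sign and 2 passed it. All that turned were not called. With robust dispersion and a likelihood ratio test, LUX Potri.001G243600 gave −0.24 for LM30 against LM80, −0.16 for 30 % against 80 % SWCg over both times and 0.16 for its interaction at 30 %. LUX Potri.009G035000 gave 0.0073 for LM30 against LM80, and ELF3 Potri.006G233800 gave 0.086 for its interaction at 50 % (0.0017 with no filter). With the likelihood ratio test 1 gene, ELF3 Potri.006G233800, was called over both times, where 2334 of all 23700 genes were called. Without EE30 C, LM30 B and LM80 A together, LUX Potri.009G035000 gave 0.32 for LM30 against LM80 and −0.18 for its interaction at 30 %, and LUX Potri.001G243600 gave 0.40 for LM50 against LM80 and −0.51 for its interaction at 50 %. The cause of these changes was not tested.

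Leaving out 1 library at a time, 0 to 1 gene was called for 30 % against 80 % SWCg over both times. The 1 gene was called without EE80 B, where 1592 of all 23678 genes tested were called. The ELF3 log2 ratio ranged from −0.097 to 0.18 between EE30 and EE80 and from −0.21 to 0.35 between LM30 and LM80, and the LUX ratio from −0.27 to 0.073 and from −0.44 to 0.46. LUX Potri.001G243600 ranged from −1.52 to 0.99 (LM30 against LM80), −1.63 to 0.39 (LM50 against LM80), −0.20 to 0.055 (EE30 against EE80), −0.44 to 0.089 (EE50 against EE80), −0.80 to 0.45 (both times), −1.07 to 1.44 (interaction at 30 %) and −0.50 to 1.52 (interaction at 50 %). LUX Potri.009G035000 ranged from −0.23 to 0.18, −0.12 to 0.17 and −0.062 to 0.15 in the first 3 of these contrasts, −0.095 to 0.10 over both times and −0.15 to 0.26 for the interaction at 30 %. ELF3 Potri.006G233800 ranged from −0.024 to 0.29 (EE30 against EE80), −0.029 to 0.28 (EE50 against EE80), 0.19 to 0.38 (both times) and −0.11 to 0.20 (interaction at 50 %). ELF4 ranged from −0.068 to 0.14 and −0.067 to 0.13 in the 2 EE contrasts.

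The replicate block left 5 genes called at each water level for EE against LM and 0 for every contrast of water, with an adjusted p of 0.130 for ELF3 Potri.006G233800 in LM30 against LM80. The deviations of libraries with 1 letter correlated above 0.1 for all 3 letters in EE30 and EE80 (0.206, 0.197 and 0.378) and in none of the other 8 pairs of groups compared, and no source says what a letter marks. Over all genes, LM30 against LM80 gave 16 calls, against 694 with the likelihood ratio test, 538 with DESeq2, 256 with the replicate block and 1 with only the groups compared. It gave 0 without LM30 B or LM80 B and 171 without LM80 A. For EE30 against EE80 there were 460 calls, against 1576 with the likelihood ratio test, 1026 with DESeq2, 739 with the replicate block and 58 with only the groups compared. There were 62 without EE80 A, 85 without EE30 A, 86 without EE80 C and 121 without EE30 B, 738 without LM30 B, 712 without LM80 A, and 1809 without EE30 C, LM30 B and LM80 A together. Over both times there were 1318, against 2334 with the likelihood ratio test, 1866 with the replicate block and 587 with only the groups compared. Leaving out 1 library gave 499 without EE80 A, 618 without EE80 C, 712 without EE30 A, 789 without EE30 B and 1592 without EE80 B. With only the LM groups in the fit, LUX Potri.001G243600 fell below the filter and gave no water value. Its LM values rest on 0 to 5 reads per library.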

Other observations

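The gene that follows each LUX gene on its chromosome was also higher in the early evening, a pattern chosen after its values were seen. The next gene after Potri.001G243600 starts 9746 bases downstream and averaged 9.16, 8.24 and 7.21 CPM in EE30, EE50 and EE80, against 1.37, 1.41 and 1.09 CPM in LM30, LM50 and LM80 (means, n = 3 each). The next gene after Potri.009G035000 starts 7011 bases downstream and averaged 8.29, 7.87 and 6.76 CPM in EE30, EE50 and EE80, against 1.09, 1.31 and 1.19 CPM in LM30, LM50 and LM80. Their log2 fold changes between the times, averaged over water levels, were 2.66 and 2.66 (edgeR adjusted p = 5.13e-11 and 8.18e-13). Of the 10 nearest neighbours of the 5 members, 8 were tested, 3 were higher in EE and 1 was lower, against 37.1 % higher and 33.0 % lower of all genes tested. The share of neighbours that were higher is thus near that of all genes. The lower one lies 180 bases from ELF3 Potri.006G233800, and its log2 fold change was −0.42 (edgeR adjusted p = 0.00603).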
